A study of Homo sapiens with 28 samples.

Results

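The 10 genes described here are the semaphorins SEMA3B, SEMA3C, SEMA3F, SEMA4B and SEMA6A and the receptor genes NRP1, NRP2, PLXNA1, PLXNB1 and PLXND1, taken by gene symbol from a table of 61815 human genes. RNA was measured in LNCaP, an androgen-responsive human prostate cancer cell line of unmodified genotype, in 28 libraries that form 8 groups. Before treatment all groups spent 72 h in charcoal-stripped serum, from which steroids are largely removed. In the 24 h experiment, 3 libraries each were made after 0.1% DMSO (vehicle), 1 µM Senexin B, 0.1 nM R1881, or R1881 and Senexin B together. In the 72 h experiment, 4 libraries each were made after 0.1% DMSO, 500 nM SNX631, 1 nM R1881, or R1881 and SNX631 together. R1881 is a synthetic androgen, and Senexin B and SNX631 inhibit the Mediator kinases CDK8 and CDK19. Doses are those of the labels, and the text of the study gives another dose for Senexin B. Time, R1881 dose, inhibitor and experiment differ together between the experiments and cannot be told apart. Every group is 1 cell line grown alone, so receptor and ligand RNA were read in the same bulk libraries and no partner cell line was present.

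Semaphorins are secreted or membrane-bound guidance proteins, first known from the steering of growing axons and later from vessels and tumors. Secreted class 3 semaphorins mostly bind a neuropilin, NRP1 or NRP2, which has a short cytoplasmic tail and pairs with a plexin that carries the signal across the membrane, whereas transmembrane semaphorins mostly bind plexins directly. The plexin cytoplasmic domain acts on small GTPases and so on the actin skeleton and adhesion. NRP1 and NRP2 are also co-receptors of vascular endothelial growth factors (VEGF). In prostate cancer cells, semaphorins and neuropilins are mostly discussed for migration, invasion and survival signals.

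Promoter windows of 300 bases, 250 before to 50 after an annotated start, were available from RefSeq (GRCh38.p14) for 8 of the 10 genes, 18 windows in all, and for SEMA6A and NRP1 there was none. The windows shown belong to the 3 genes with an entry that were called for R1881 without inhibitor, and both starts of SEMA3C are given because they differ in base composition. Each runs 5′ to 3′ on the strand of the gene, and capitals mark the GC box GGGCGG on either strand, where boxes that share bases run together.
SEMA3C upstream start (chr7:80922340-80922639, minus strand, 36% GC): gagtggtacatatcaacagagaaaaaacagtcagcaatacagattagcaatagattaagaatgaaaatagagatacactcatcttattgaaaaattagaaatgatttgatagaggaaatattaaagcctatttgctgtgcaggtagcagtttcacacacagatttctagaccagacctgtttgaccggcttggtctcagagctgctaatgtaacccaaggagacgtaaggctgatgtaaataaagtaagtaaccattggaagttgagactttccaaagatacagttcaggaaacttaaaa
SEMA3C downstream start (chr7:80919002-80919301, minus strand, 75.7% GC): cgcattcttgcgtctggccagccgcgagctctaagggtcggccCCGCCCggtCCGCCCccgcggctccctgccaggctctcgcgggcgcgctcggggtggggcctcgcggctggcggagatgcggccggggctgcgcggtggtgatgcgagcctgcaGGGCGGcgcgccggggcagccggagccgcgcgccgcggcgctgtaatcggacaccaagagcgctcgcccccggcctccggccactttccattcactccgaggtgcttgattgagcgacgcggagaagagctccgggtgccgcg
SEMA3B (chr3:50267402-50267701, plus strand, 68.7% GC): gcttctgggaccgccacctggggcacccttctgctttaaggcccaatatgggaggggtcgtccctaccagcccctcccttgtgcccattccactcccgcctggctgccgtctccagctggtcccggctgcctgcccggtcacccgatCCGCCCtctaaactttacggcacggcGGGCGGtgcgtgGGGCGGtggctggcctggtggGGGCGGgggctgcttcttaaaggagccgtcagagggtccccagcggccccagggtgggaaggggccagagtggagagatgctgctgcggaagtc
PLXND1 (chr3:129606627-129606926, minus strand, 87.3% GC): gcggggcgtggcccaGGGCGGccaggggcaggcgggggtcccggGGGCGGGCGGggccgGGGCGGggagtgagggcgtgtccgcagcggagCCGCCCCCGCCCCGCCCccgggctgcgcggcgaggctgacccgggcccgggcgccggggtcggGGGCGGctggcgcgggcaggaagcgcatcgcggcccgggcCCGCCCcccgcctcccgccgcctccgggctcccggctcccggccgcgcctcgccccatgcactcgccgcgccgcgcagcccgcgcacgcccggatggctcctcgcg

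The GC box was found in 13 of the 18 windows, some of which overlap within a gene, and in 45% of 35116 windows of all genes. Each of the 8 genes had at least 1 box, and no share per gene is given for all genes. The upstream SEMA3C window held none, the downstream one held 3, the SEMA3B window shown 4 and the PLXND1 window 9. SEMA3B has 5 windows, with 0 to 4 boxes, and the one shown holds the annotated gene start. A match or its absence describes these letters in these windows, and the counted reads do not show which SEMA3C start was used.

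Values are counts per 1000000 reads (CPM) on library sizes scaled by TMM within each experiment. Contrasts were fitted in edgeR over all genes, and FDR is the Benjamini-Hochberg adjusted p. A gene is called where the FDR was under 0.01 and the fold change over 1.5, and the words rose and fell are also used for an FDR under 0.01 with a smaller change. Of the 10 genes, 9 passed the filter on low counts in both experiments and NRP2 did not. Total counts ran from 9846595 to 33809419 per library, and the highest total, replicate 3 of the 24 h vehicle group, stood above a next highest of 15248512. The luminal prostate markers FOLH1 (group means of 692 to 1469 CPM), HOXB13, KRT8, KRT18 and EPCAM were abundant, with EPCAM the lowest of them at 162 to 223 CPM, and KLK3 was at 0.953 to 138 CPM, with the high values in the R1881 groups. Markers of other cells were at most 5 counts per library for TP63, KRT5, KRT14, COL1A2, PECAM1, CDH5, PTPRC, CD3E and CHGA. COL1A1 (8.10 to 30.0 CPM), PDGFRB, VWF, CD68 and SYP were above that level. COL1A1 carried most of the summed fibroblast list, which ran from 24.5 CPM with vehicle through 15.9 with R1881 and 12.2 with Senexin B to 9.14 with both at 24 h, while at 72 h it was 31.9, 22.3 and 20.6 CPM with vehicle, R1881 and SNX631 and lowest with both agents. VWF carried the endothelial list, which ran from 0.610 CPM with Senexin B to 4.06 CPM with R1881 at 72 h. The defining genes beside them, COL1A2, PECAM1 and CDH5, were at 0 to 2 counts in every library. The part of these lists in the results was not tested. The libraries are described as biological replicates, but separate cultures are not stated, so p-values measure the spread between these libraries.

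The genes and lists were chosen with earlier results of these data known. Counts set beside shares of all genes, here and below, therefore do not measure enrichment. R1881 without inhibitor called 5 of the 9 tested genes at 24 h, against 19% of all tested genes. SEMA3C, NRP1 and PLXND1 were higher, where 9.81% of all genes were called higher, and SEMA3B and SEMA6A were lower, where 9.16% were called lower. At 72 h 4 of 9 were called, against 19.8% of all genes, and these were NRP1 and PLXND1 in the higher direction (9.68% of all genes) and SEMA3B and SEMA6A in the lower (10.1%). With no fold limit 8 of 9 passed in each experiment, 4 in each direction, and 48.3% of all genes passed at 24 h and 52.2% at 72 h. PLXNA1 was the gene that did not pass. The median log2 fold change over the 9 genes was -8.46e-05 at 24 h and 0.04 at 72 h, beside -0.02 and -0.01 over all tested genes. Scaling to library totals alone lowered the median of all genes at 72 h by 0.10 on the log2 scale, and 8.07% of genes were then called higher and 13.2% lower. In bulk RNA a change in the RNA per cell and a change in how many cells carry it cannot be told apart.

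**Figure D1:**
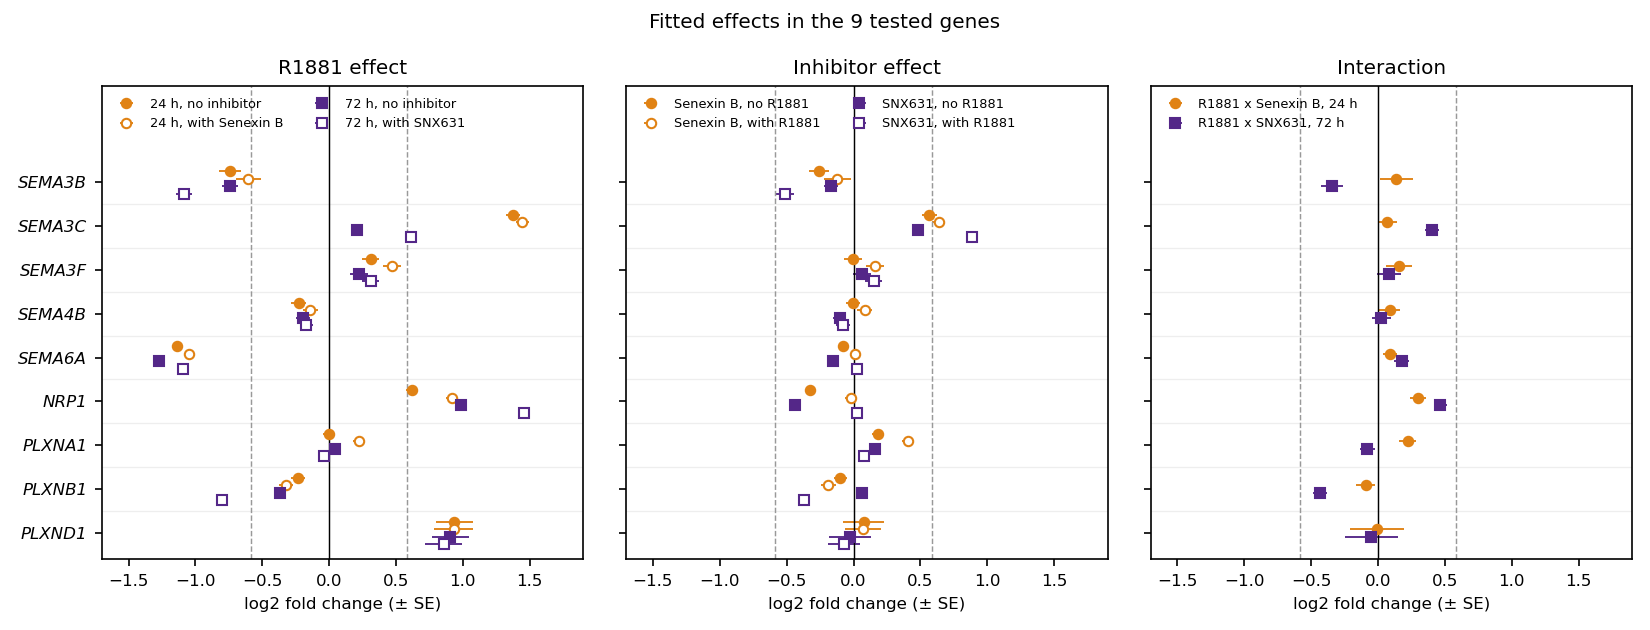
Fitted log2 fold changes with their SE for the 9 tested genes, in panels for the effect of R1881, of the inhibitor and of their interaction, with circles for 24 h and squares for 72 h, open in the first 2 panels where the other agent was present. Dashed lines mark a fold change of 1.5. SEMA3C shows the widest gap between times for R1881 (1.38 and 0.21). In the R1881 panel every gene except PLXNA1 stays on 1 side of 0 with and without inhibitor. NRP1, SEMA3C, SEMA3B and PLXNB1 pass an FDR of 0.01 in the interaction at 72 h.

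SEMA3C (ENSG00000075223.14, chromosome 7, 80742538 to 80922359, minus strand, GRCh38) encodes a secreted semaphorin that signals through neuropilins with plexins of the A type or PLXND1. At 24 h it read 46.7, 51.3 and 50.2 CPM in the vehicle libraries, 77.3, 65.8 and 77.1 with Senexin B, 136, 120.4 and 131 with R1881, and 202, 203 and 197 with both. The 4 groups did not overlap, and each treatment alone lay between vehicle and the pair of agents. R1881 raised it by 1.38 ± 0.05 on the log2 scale without inhibitor (SE, edgeR FDR 5.27e-21) and by 1.45 ± 0.05 with Senexin B (edgeR FDR 2.27e-22). The 72 h libraries read 71.8, 71.3, 68.8 and 65.2 CPM with vehicle, 95.8, 95.6, 95.3 and 101 with SNX631, 84.2, 82.2, 77.8 and 76.0 with R1881, and 153, 147, 144 and 149 with both. These groups did not overlap either, but here the inhibitor alone lay above R1881 alone. R1881 raised it by 0.21 ± 0.04 (SE, edgeR FDR 2.87e-05) without SNX631, which is under the fold limit and was 0.11 with library totals alone (edgeR FDR 0.0218, over the FDR limit). With SNX631 present the R1881 effect was 0.61 ± 0.03 (SE, edgeR FDR 1.7e-18), just over the fold limit, and it dropped to 0.50 with library totals alone. The R1881 effect at 72 h minus that at 24 h was -1.17 ± 0.07 on the log2 scale (SE, edgeR FDR 8.84e-18). SEMA3C was the 1 gene of 9 called in that difference, in which 1.88% of all genes were called, 1.34% lower.

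SEMA3B (ENSG00000012171.20, chromosome 3, 50267558 to 50277546, plus strand), a secreted semaphorin often described as growth-suppressing, went the other way. At 24 h it read 25.5, 22.2 and 27.4 CPM with vehicle and 14.8, 15.2 and 15.8 with R1881. At 72 h it read 31.4, 29.7, 32.4 and 31.9 with vehicle and 19.0, 19.3, 18.7 and 18.0 with R1881. The groups did not overlap at either time, and the fall was 0.74 on the log2 scale in both (SE 0.08, edgeR FDR 2.29e-09, and SE 0.06, edgeR FDR 3.61e-14). With Senexin B present it fell by 0.60 ± 0.09 (SE, edgeR FDR 8.15e-07), near the fold limit. Leaving out replicate 3 of the Senexin B group, or replicate 2 of the group with both agents, brought this under the limit (-0.58 and -0.55). With SNX631 present it fell by 1.09 ± 0.06 (SE, edgeR FDR 1.57e-18). SEMA3B had fractional counts in 13 of the 28 libraries, beside 1 library each for SEMA3F and SEMA4B and 0 for the other 7 genes.

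SEMA3F (ENSG00000001617.12, chromosome 3, 50155045 to 50189075, plus strand) lies on the same chromosome and strand as SEMA3B and encodes a ligand with a preference for NRP2. It read 22.1, 20.7 and 23.0 CPM with vehicle and 29.3, 27.7 and 25.6 with R1881 at 24 h, and 21.8, 21.3, 19.8 and 19.2 against 24.8, 24.9, 22.3 and 24.0 at 72 h. The groups did not overlap, and the rise of 0.31 ± 0.07 (SE, edgeR FDR 0.000184) and of 0.23 ± 0.07 (SE, edgeR FDR 0.00346) stayed under the fold limit. The 72 h value was 0.12 with library totals alone (edgeR FDR 0.0994), and the FDR passed 0.01 without replicate 3 or 4 of the vehicle group or replicate 1 or 2 of the R1881 group (0.19 to 0.21). In both experiments SEMA3F was thus higher and SEMA3B lower with R1881.

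SEMA6A (ENSG00000092421.17, chromosome 5, 116443616 to 116574934, minus strand), a transmembrane semaphorin that binds PLXNA2 and PLXNA4, was the most abundant of the 5 ligands per exon length in vehicle cells and fell most of the 5 with R1881. At 24 h it read 460.1, 456 and 472 CPM with vehicle, 448, 429.5 and 437 with Senexin B, 216, 204 and 212 with R1881, and 226, 204 and 205 with both. The 72 h libraries read 407, 403, 407 and 416 with vehicle, 394, 361, 381 and 332 with SNX631, 158, 174, 169 and 175 with R1881, and 168, 175, 182 and 162 with both. All R1881 libraries lay under all libraries without R1881, and the groups with R1881 overlapped each other whether or not an inhibitor was present. R1881 lowered it 2.20-fold at 24 h (log2 fold change -1.14 ± 0.04, SE, edgeR FDR 5.76e-23) and 2.41-fold at 72 h (-1.27 ± 0.04, SE, edgeR FDR 3.72e-27). The antisense genes SEMA6A-AS1 and SEMA6A-AS2 share exon bases with it and reached 10 and 84 counts in any library, beside 1512 counts in the lowest SEMA6A library.

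SEMA4B (ENSG00000185033.15, chromosome 15, 90160604 to 90229679, plus strand), a transmembrane class 4 semaphorin, changed least among the ligands. It ranged from 34.3 to 47.9 CPM over all libraries. R1881 lowered it, with log2 fold changes of -0.23 ± 0.05 (SE, edgeR FDR 0.000552) in the 24 h and -0.20 ± 0.05 (SE, edgeR FDR 0.000985) in the 72 h experiment, without overlap of the R1881 and vehicle libraries. These are changes of 1.17-fold and 1.15-fold, and the 72 h fall was 0.30 with library totals alone.

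**Figure D2:**
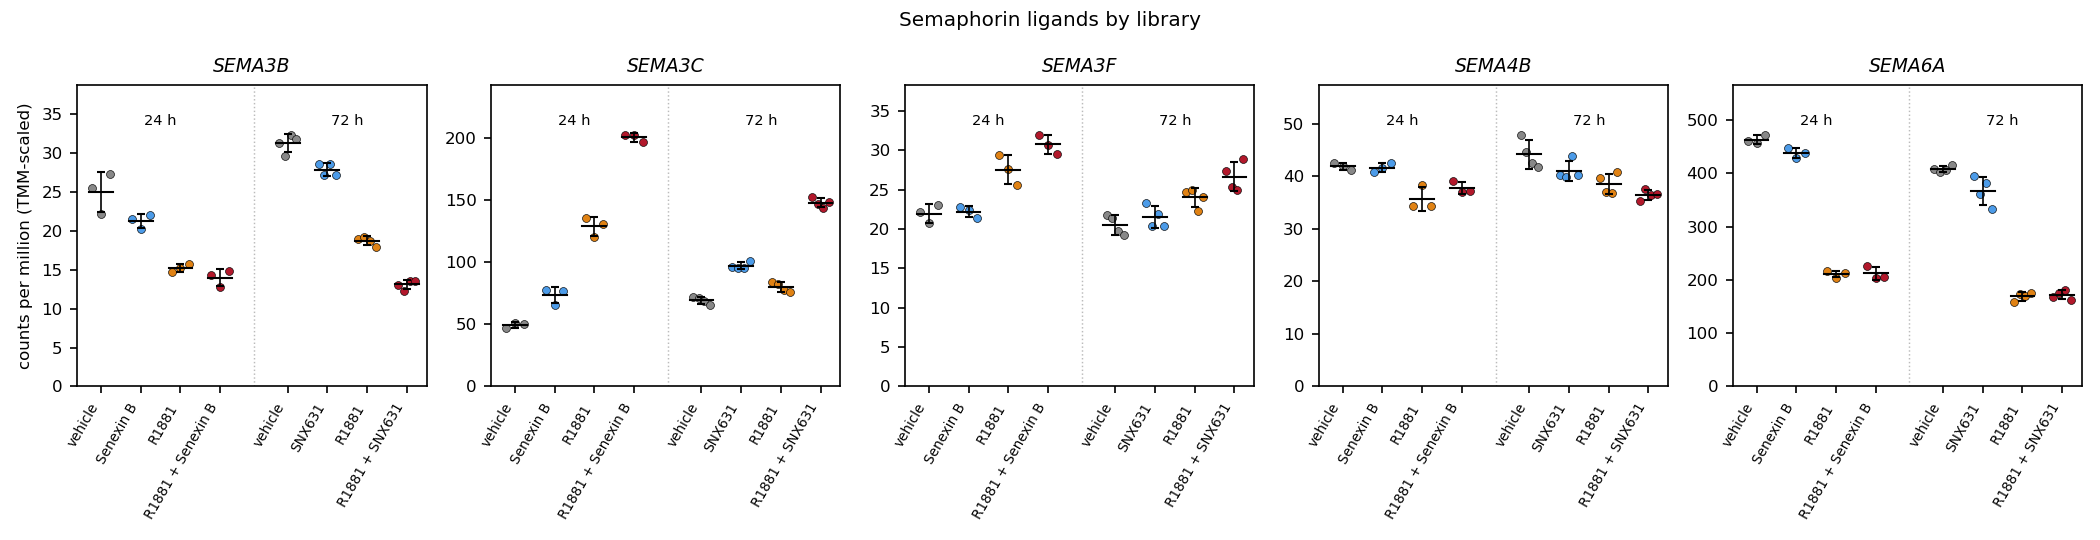
CPM of the 5 semaphorins in every library (points), with group means and SD (bars), for the groups of 3 at 24 h and of 4 at 72 h, each panel on its own linear axis from 0. SEMA3C rises from a mean of 49.4 to 201 CPM across the 24 h groups, and SEMA6A splits into libraries with R1881 (158 to 226 CPM) and without (332 to 472 CPM).

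NRP1 (ENSG00000099250.18, chromosome 10, 33177492 to 33336262, minus strand), the neuropilin of most class 3 semaphorins and of VEGFA, was the main neuropilin in these cells. At 24 h it read 146, 141 and 144 CPM with vehicle, 117, 108 and 119 with Senexin B, 233, 212 and 216 with R1881, and 222, 222 and 207 with both. At 72 h it read 98.9, 104, 98.9 and 106 with vehicle, 77.5, 73.7, 73.8 and 76.2 with SNX631, 209, 197, 206 and 198 with R1881, and 209.7, 209.7, 212 and 193 with both. Without R1881 the inhibitor libraries lay under all vehicle libraries, and with R1881 the inhibitor and control libraries overlapped. R1881 raised NRP1 by 0.62 ± 0.04 at 24 h (SE, edgeR FDR 8.13e-15), which fell under the fold limit with library totals alone (0.54) and without replicate 1 of the R1881 group (0.58). At 72 h the rise was 0.99 ± 0.03 (SE, edgeR FDR 2.52e-25), and the difference between the experiments was 0.37 ± 0.05 (SE, edgeR FDR 9.21e-07), under the fold limit. With no fold limit 2 of 9 genes, NRP1 and SEMA3C, passed in this difference, against 7.52% of all genes.

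NRP2 (ENSG00000118257.17, chromosome 2, 205681990 to 205798133, plus strand) had 0 to 15 counts per library, too few for the filter, and its values carry a large counting error. At 24 h the vehicle libraries held 2, 0 and 9 counts, those with Senexin B 15, 8 and 12, those with R1881 0, 2 and 0, and those with both 5, 5 and 3. In CPM the Senexin B libraries (0.663 to 1.10) lay above the vehicle libraries (0 to 0.256), and the pooled ratio of 35 to 11 counts, set against library size, was 4.93 (95% interval 2.50 to 9.70, counting error only). At 72 h SNX631 libraries held 4, 5, 4 and 7 counts and vehicle libraries 1, 6, 1 and 2, a ratio of 2.02 (0.943 to 4.31). That interval includes 1, and the libraries overlapped. R1881 alone left 0 to 2 counts per library at both times, at or under the floor of 3 counts, so no fold is given for it.

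The plexins split by member. PLXND1 (ENSG00000004399.13, chromosome 3, 129555175 to 129606818, minus strand), the receptor of SEMA3E and, with neuropilins, of SEMA3C, was low and rose with R1881. It read 4.69, 4.72 and 4.29 CPM with vehicle and 9.26, 8.63 and 7.85 with R1881 at 24 h, and 2.95, 3.35, 2.83 and 4.05 against 5.12, 6.04, 7.30 and 6.31 at 72 h. The groups did not overlap, and the log2 fold changes were 0.94 ± 0.14 (SE, edgeR FDR 7.57e-07) and 0.91 ± 0.14 (SE, edgeR FDR 4.74e-07). With the inhibitors present the R1881 effect was 0.93 ± 0.15 with Senexin B (SE, edgeR FDR 1.99e-06) and 0.86 ± 0.14 with SNX631 (SE, edgeR FDR 7.35e-07).

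PLXNB1 (ENSG00000164050.13, chromosome 3, 48403854 to 48430051, minus strand), the receptor of SEMA4D, pairs with MET and ERBB2. It read 69.7, 72.9 and 70.4 CPM with vehicle and 64.6, 58.1 and 58.5 with R1881 at 24 h, a fall of 0.23 ± 0.05 (SE, edgeR FDR 0.000138). The 72 h libraries read 95.4, 92.6, 92.9 and 101 with vehicle, 95.8, 98.7, 101 and 103 with SNX631, 70.9, 75.0, 75.5 and 73.6 with R1881, and 56.0, 58.8, 57.4 and 55.7 with both. Vehicle and SNX631 libraries overlapped, while the libraries with both agents lay under all with R1881 alone, which lay under all vehicle libraries. The fall with R1881 was 0.37 ± 0.04 without SNX631 (SE, edgeR FDR 3.42e-11) and 0.80 ± 0.04 with it (SE, edgeR FDR 3.97e-21).

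PLXNA1 (ENSG00000114554.12, chromosome 3, 126988594 to 127037392, plus strand), the common signalling partner of NRP1, did not pass for R1881. It read 76.1, 79.3 and 81.2 CPM with vehicle and 83.9, 77.5 and 76.8 with R1881 at 24 h. At 72 h it read 79.8, 77.5, 79.8 and 75.3 against 77.8, 84.2, 76.3 and 82.5. The groups overlapped, and the 95% interval of the log2 fold change was -0.09 to 0.09 at 24 h, while that at 72 h was -0.04 to 0.12.

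**Figure D3:**
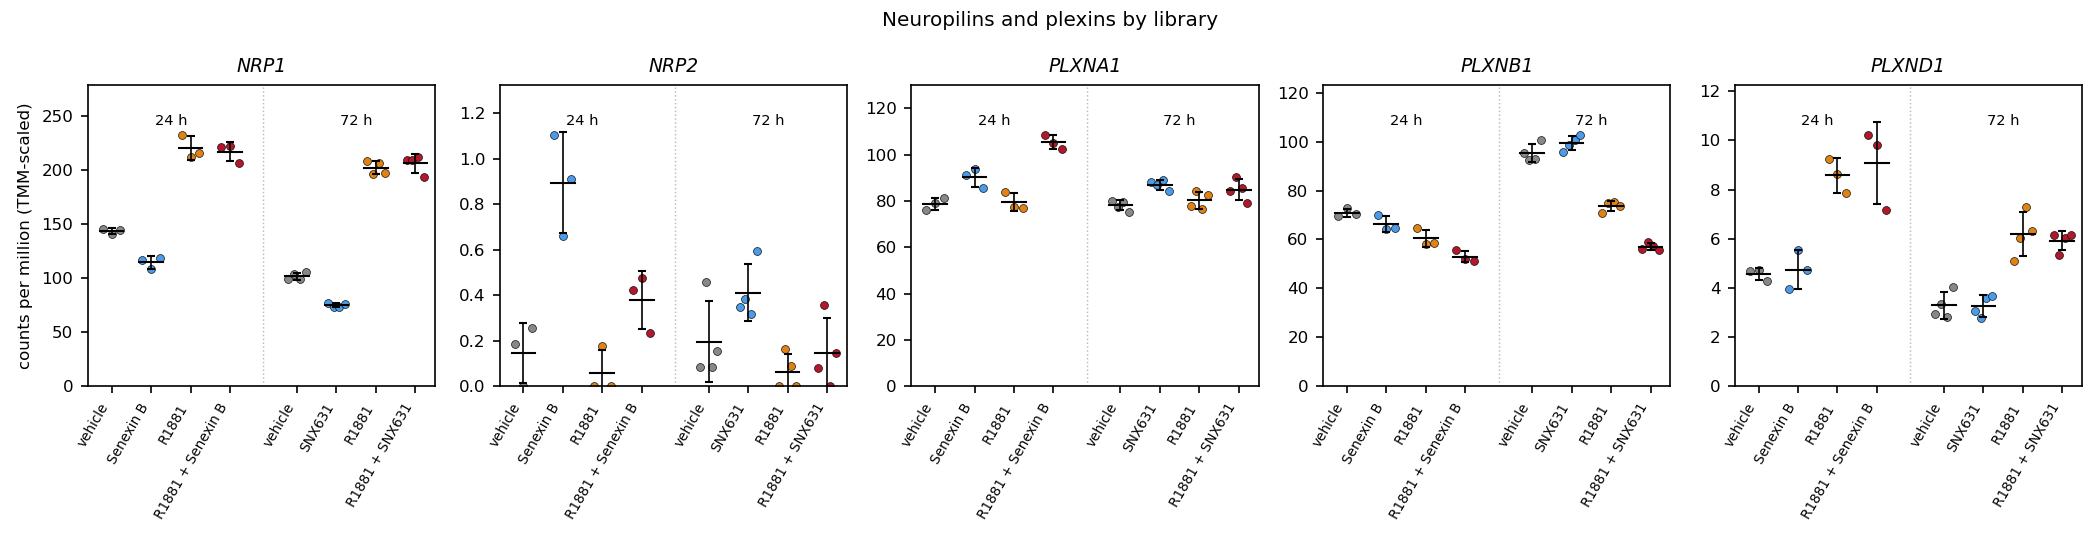
CPM of the 2 neuropilins and 3 plexins in every library (points), with group means and SD (bars), each panel on its own linear axis from 0. NRP1 is lowest with an inhibitor alone (115 CPM at 24 h and 75.3 CPM at 72 h) and highest in the groups with R1881, and NRP2 stays at or under 1.10 CPM.

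The inhibitors were compared with their controls in cells without and with R1881. Their doses and times differ, so their values stand side by side and were not compared, and within an experiment the R1881 and inhibitor contrasts share the vehicle libraries. Without R1881, edgeR called 0 of 9 genes for Senexin B, against 3.76% of all genes, and 0 of 9 for SNX631, against 4.76%. DESeq2 also called 0 in each, and 6 of 9 had an unadjusted p under 0.05 in each edgeR contrast. Without the filter on low counts edgeR called 1 gene for Senexin B, NRP2 (log2 fold change 2.25, FDR 0.000105), and NRP2 with SNX631 was at 0.98 (FDR 0.306). With no fold limit 4 of 9 passed for Senexin B (25.1% of all genes) and 5 of 9 for SNX631 (26.9%). With R1881 present, 1 of 9 was called in each, SEMA3C in the higher direction. Of all genes 3.12% were called for Senexin B, 1.62% higher, and 4.11% for SNX631, 1.88% higher. Dropping the fold limit, 3 of 9 passed in each, against 22.6% of all genes for Senexin B and 33.2% for SNX631. The median log2 effect over the 9 genes lay between -0.02 and 0.07 in the 4 contrasts, beside -0.01 to 0.01 over all genes.

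SEMA3C was higher with an inhibitor in all 4 contrasts. With Senexin B the log2 fold change was 0.57 ± 0.05 without R1881 (SE, edgeR FDR 1.03e-09), a change of 1.48-fold just under the limit. It passed the limit without replicate 2 or replicate 3 of the vehicle group or without replicate 2 of the Senexin B group (0.59, 0.59 and 0.64). With R1881 it was 0.64 ± 0.05 (SE, edgeR FDR 1.61e-12), and 0.58, under the limit, without replicate 2 of the R1881 group. With SNX631 it was 0.49 ± 0.04 without R1881 (SE, edgeR FDR 4.68e-13) and 0.89 ± 0.04 with it (SE, edgeR FDR 1.27e-21).

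NRP1 fell with an inhibitor in the absence of R1881, by 0.32 ± 0.04 with Senexin B (SE, edgeR FDR 3.55e-07) and by 0.44 ± 0.04 with SNX631 (SE, edgeR FDR 5.16e-12). With R1881 the intervals of the log2 effect ran from -0.10 to 0.06 for Senexin B and from -0.03 to 0.09 for SNX631, and neither passed. PLXNA1 rose by 0.19 ± 0.04 with Senexin B (SE, edgeR FDR 0.00108) and by 0.16 ± 0.04 with SNX631 (SE, edgeR FDR 0.00147) without R1881, the latter missing 0.01 without replicate 4 of the vehicle group (0.14). With R1881 it rose by 0.41 ± 0.05 with Senexin B (SE, edgeR FDR 2.45e-08), from 76.8 to 83.9 CPM up to 103 to 109 CPM, and was 0.08 ± 0.04 with SNX631 (SE, edgeR FDR 0.102).

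SEMA3B fell with SNX631, by 0.17 ± 0.05 without R1881 (SE, edgeR FDR 0.00961) and by 0.51 ± 0.07 with it (SE, edgeR FDR 5.42e-08). Under Senexin B the fall was 0.26 ± 0.07 without R1881 (SE, edgeR FDR 0.00586), and with R1881 the effect of -0.12 ± 0.10 did not pass (SE, edgeR FDR 0.378). Both falls without R1881 missed 0.01 in DESeq2 (adjusted p 0.0546 and 0.054). The Senexin B value was -0.14 (edgeR FDR 0.223) without replicate 3 of the vehicle group and missed 0.01 without any 1 of vehicle replicate 1 and the 3 Senexin B replicates, and the SNX631 value missed it in 12 of the 16 fits that left out 1 library (-0.18 to -0.15). PLXNB1 fell with R1881 present, by 0.19 ± 0.05 with Senexin B (SE, edgeR FDR 0.00718) and by 0.37 ± 0.04 with SNX631 (SE, edgeR FDR 5.07e-10), and without R1881 its effects of -0.10 ± 0.05 and 0.06 ± 0.03 (SE) did not pass. The Senexin B fall missed 0.01 in DESeq2 (adjusted p 0.0149), without replicate 1 of the R1881 group (-0.15) and without replicate 2 or 3 of the group with both agents (-0.18 and -0.16). SEMA6A fell by 0.15 ± 0.03 with SNX631 alone (SE, edgeR FDR 0.000502), and in the other 3 inhibitor contrasts its effect lay between -0.08 and 0.02. SEMA3F, SEMA4B and PLXND1 passed in none of the 4 contrasts, with log2 effects between -0.10 and 0.16.

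The interaction, which is the R1881 effect with the inhibitor minus that without it, called 0 of 9 genes in edgeR and in DESeq2 at both times, against 0.583% of all genes at 24 h and 1.19% at 72 h. At an unadjusted p under 0.05 the edgeR counts were 2 and 5 of 9. Dropping the fold limit, 1 of 9 passed at 24 h (2.09% of all genes) and 4 of 9 at 72 h (7.09%). NRP1 passed in both, with 0.30 ± 0.06 at 24 h (SE, edgeR FDR 0.00108) and 0.47 ± 0.05 at 72 h (SE, edgeR FDR 3.52e-09), so its rise with R1881 was steeper with an inhibitor, from the lower start. The 24 h value missed 0.01 without replicate 3 of the vehicle group (0.28, edgeR FDR 0.0116) or replicate 2 of the Senexin B group (0.24, edgeR FDR 0.0149). SEMA3C passed at 72 h with 0.40 ± 0.05 (SE, edgeR FDR 5.1e-07), and its 24 h value was 0.07 ± 0.07 (SE, edgeR FDR 0.696). SEMA3B passed at 72 h with -0.34 ± 0.08 (SE, edgeR FDR 0.00406) and PLXNB1 with -0.43 ± 0.05 (SE, edgeR FDR 9.68e-08), each a deeper fall with R1881 when SNX631 was present. The SEMA3B value missed 0.01 in DESeq2 (adjusted p 0.0231) and without replicate 2 of the vehicle, R1881 or combined group or replicate 3 of the SNX631 group (-0.33 to -0.31). SEMA6A was at 0.18 ± 0.05 at 72 h (SE, edgeR FDR 0.0213, over the limit). It passed 0.01 without the filter on low counts (edgeR FDR 0.000102) and without replicate 1 of the SNX631 group or replicate 4 of the group with both agents (0.21 in each). For PLXND1 the interaction was -0.0045 ± 0.20 at 24 h and -0.05 ± 0.20 at 72 h (SE), with a 95% interval of -0.44 to 0.34 at 72 h.

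With an inhibitor present, R1881 called 5 of 9 genes at 24 h (18.9% of all genes) and 6 of 9 at 72 h (22%). At 24 h these were the 5 genes called without inhibitor, 3 higher (9.94% of all genes) and 2 lower (8.94%). Without a fold limit 8 of 9 passed in each, against 47.5% of all genes at 24 h and 57.2% at 72 h, and SEMA4B at 72 h (-0.17) missed 0.01 without replicate 3 of the SNX631 group or replicate 1 of the group with both agents (-0.14 and -0.16). At 72 h SEMA3C and PLXNB1 joined the 4 genes called without SNX631, making 3 higher and 3 lower. With library totals alone 8.14% of all genes were called higher and 15.2% lower in that contrast, against 10% and 11.9% with TMM. SEMA4B did not pass with Senexin B present (-0.14 ± 0.06, SE, edgeR FDR 0.0312), and PLXNA1 rose there by 0.22 ± 0.04 (SE, edgeR FDR 6.21e-05).

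Levels of different genes were set side by side per kilobase of annotated exon. The length is that of all annotated exons of a gene, and the length of the transcripts expressed was not measured. Overlap of libraries covers the spread between replicates and not an error in this length. Among the ligands in 24 h vehicle cells SEMA6A stood first at 42.2 CPM per kilobase, followed by SEMA3C at 7.88, SEMA4B at 5.98, SEMA3F at 4.55 and SEMA3B at 4.34, and the libraries of SEMA3F and SEMA3B overlapped. With R1881 alone at 24 h the means were 20.6 for SEMA3C and 19.2 for SEMA6A, with overlapping libraries, and at 72 h they were 12.8 and 15.4. With R1881 and Senexin B together SEMA3C, at 32.0 CPM per kilobase, exceeded SEMA6A at 19.3, and with R1881 and SNX631 at 72 h SEMA3C stood at 23.6 and SEMA6A at 15.7. Among the receptors in 24 h vehicle cells NRP1 stood at 12.5 CPM per kilobase, PLXNB1 at 7.29 and PLXNA1 at 7.21, with overlapping libraries for these 2 plexins, then PLXND1 at 0.469 and NRP2 at 0.0106. PLXNB1 stood over PLXNA1 in 72 h vehicle cells (9.80 against 7.13), and the order turned with both agents at 72 h (5.85 against 7.75).

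**Figure D4:**
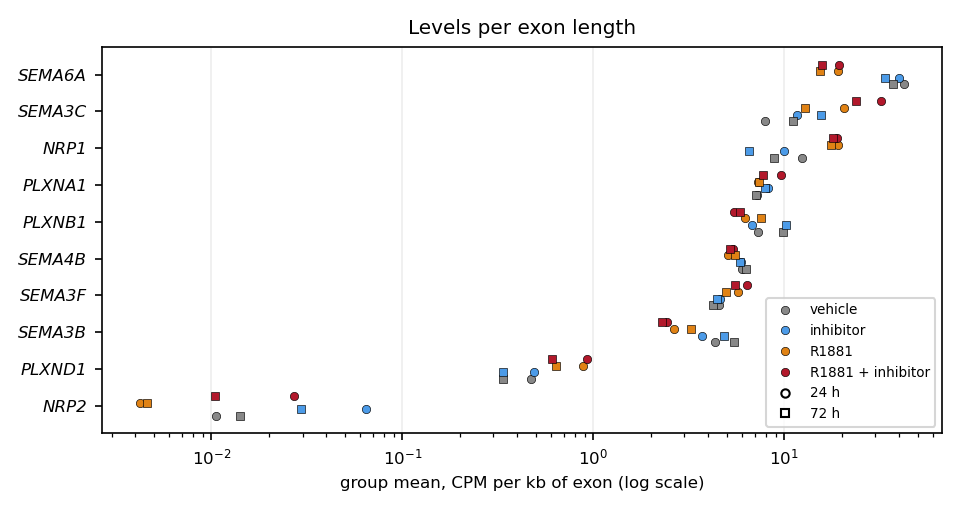
Group means in CPM per kilobase of annotated exon on a log axis, 1 row per gene, with circles for 24 h, squares for 72 h and colors for the treatment. At 24 h SEMA6A and SEMA3C lie far apart in vehicle cells (42.2 and 7.88), close together with R1881 alone (19.2 and 20.6) and in the opposite order with R1881 and Senexin B (19.3 and 32.0), and PLXND1 and NRP2 lie far under the other 8 genes.

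The remaining genes of the pathway were taken from lists of 15 other semaphorins, 6 other plexins, 24 genes of plexin signalling and 16 co-receptors, processing enzymes and VEGF genes. Of the semaphorins 11 were tested at 24 h, and R1881 called 1 higher and 4 lower, against 9.81% and 9.16% of all genes, with a median log2 fold change of -0.22 beside -0.02 over all genes. At 72 h 10 were tested, and 1 was higher and 3 lower, against 9.68% and 10.1% of all genes, with a median of -0.22 beside -0.01. SEMA6B fell from 19 to 78 counts per vehicle library to 1 to 5 with R1881 at 24 h, log2 -3.00 ± 0.58 (edgeR FDR 4.41e-07, SE), and at 72 h the drop was -2.47 ± 0.34 (edgeR FDR 1.29e-09). SEMA6C fell at both times, to log2 fold changes of -0.62 ± 0.16 (SE, edgeR FDR 0.000939) and -0.75 ± 0.13 (SE, edgeR FDR 4.21e-06), so that 3 class 6 semaphorins, SEMA6A among them, were lower with R1881 in both experiments. SEMA6D, a ligand of PLXNA1, moved the opposite way, from 1 to 7 counts per vehicle library at 72 h to 32 to 40 with R1881 (log2 fold change 3.76 ± 0.44, SE, edgeR FDR 3.33e-13), beside a rise of 2.56 ± 0.31 (SE, edgeR FDR 2.36e-09) at 24 h. Counts of SEMA6B with R1881 at 24 h and of SEMA6D with vehicle at 72 h reached under the floor of 3. The size of these 2 changes is therefore imprecise. SEMA3E, another ligand of PLXND1, had at most 2 counts in any library, and SEMA3A and SEMA3D at most 1.

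Of the 4 other plexins tested, R1881 without inhibitor called 0 in edgeR in either experiment, against 19% and 19.8% of all genes, with 4 and 3 at an unadjusted p under 0.05. PLXNB2 was the most abundant of them, at group means of 262 to 322 CPM. PLXNA2, a receptor of SEMA6A, is named after its values were seen because it was the 1 gene of the 4 lists called in an interaction, at -1.40 ± 0.33 at 72 h (SE, edgeR FDR 0.00244). In the Senexin B libraries it stood at 4.89 ± 0.361 CPM and in the vehicle libraries at 2.28 ± 0.0823 CPM (n = 3 each, SD), and this rise was 1.09 ± 0.17 in log2 units (edgeR FDR 6.8e-06). With SNX631 alone it rose by 0.71 ± 0.22 (SE, edgeR FDR 0.00767), and with R1881 the effects were -0.11 ± 0.29 and -0.69 ± 0.25, neither of which passed. R1881 called PLXNA2 lower with Senexin B present (-1.86 ± 0.24, SE, edgeR FDR 7.92e-09) and with SNX631 present (-1.17 ± 0.23, SE, edgeR FDR 1.81e-05). Its 24 h interaction was -1.21 ± 0.34 (SE, edgeR FDR 0.035, over the limit). At 72 h it held 12 to 39 counts per library.

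In plexin signalling 19 of 24 genes were tested, of which R1881 called 1 higher and 3 lower at 24 h and 3 of each at 72 h, where 19% and 19.8% of all genes were called in either direction. The 24 h count is near that background, and with 19 genes neither count is read as a result about the list. MICAL1, an oxidase of actin that acts after plexins, stood at 46.6 ± 3.00 CPM in vehicle and 332 ± 14.7 CPM in R1881 libraries at 24 h (n = 3, SD). The 72 h values were 47.4 ± 1.51 and 393 ± 21.2 CPM (n = 4, SD), and the rises were 7.17-fold and 8.30-fold (edgeR FDR 1.21e-29 and 1.12e-39). DPYSL2, the collapsin response mediator CRMP2, fell at both times, at -0.80 ± 0.05 and -0.77 ± 0.05 in log2 units (SE, edgeR FDR 2.72e-16 and 3.76e-17). FYN, a kinase of the SRC family that acts after plexins of the A type, fell likewise, at -0.91 ± 0.23 and -1.40 ± 0.16 (SE, edgeR FDR 0.000535 and 1.18e-10). The inhibitors called 0 of these 19 genes in edgeR in any of the 4 contrasts, with 10 or 11 at an unadjusted p under 0.05 in each. As 3.12% to 4.76% of all genes were called in these contrasts, a count of 0 among 19 is not a result about the list.

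Of the co-receptor and VEGF list 10 of 16 genes were tested at 24 h and 9 at 72 h. R1881 called 1 higher and 2 lower in each experiment, where 19% and 19.8% of all genes were called in either direction. The higher gene was VEGFA at 24 h and PCSK5 at 72 h, and the lower genes were MET and ERBB2. VEGFA, at group means of 50.2 to 120 CPM, was also called higher with R1881 when Senexin B or SNX631 was present. MET, the hepatocyte growth factor receptor that associates with PLXNB1, fell with R1881, at -2.05 ± 0.37 in the 24 h experiment (SE, edgeR FDR 1.15e-06) and -2.38 ± 0.27 in the 72 h experiment (SE, edgeR FDR 2.17e-11). It was called higher in all 4 inhibitor contrasts, at 1.15 ± 0.18 for Senexin B alone (SE, edgeR FDR 4.45e-06), 1.46 ± 0.40 for Senexin B with R1881 (SE, edgeR FDR 0.00247), 1.12 ± 0.13 for SNX631 alone (SE, edgeR FDR 6.81e-09) and 1.01 ± 0.30 for SNX631 with R1881 (SE, edgeR FDR 0.0034). In the 24 h R1881 libraries it held 3 to 8 counts. ERBB2, the other kinase partner of PLXNB1, stood at 369.7 ± 4.83 CPM in vehicle and 178 ± 9.39 CPM in R1881 libraries at 24 h (n = 3, SD). The 72 h values were 371 ± 12.2 and 187 ± 7.50 CPM (n = 4, SD), and the falls were 2.07-fold and 1.98-fold (edgeR FDR 2.08e-21 and 4.27e-27). ERBB2 was also lower in all 4 inhibitor contrasts, each under the fold limit. With Senexin B the log2 fold change was -0.43 ± 0.04 alone (SE, edgeR FDR 4.00e-11) and -0.31 ± 0.04 with R1881 (SE, edgeR FDR 7.17e-07). With SNX631 it was -0.38 ± 0.03 alone (SE, edgeR FDR 5.59e-14) and -0.54 ± 0.03 with R1881 (SE, edgeR FDR 1.80e-16). The VEGF receptors FLT1 and KDR, which use NRP1 as a co-receptor, had at most 2 and 4 counts in any library.

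For the 4 genes with the widest range of group means, and SEMA3B added because NRP2, one of the 4, is under the filter, the 3 genes with the most alike pattern were sought among 13292 genes with a mean of at least 1 CPM in each experiment. Likeness was the root mean square difference of log2 CPM over the 28 libraries, each gene centred within its experiment. For NRP1 these were CD9 (0.0935), BCAP29 (0.0968) and CAPZB (0.103), beside a spread of NRP1 itself of 0.545. For SEMA6A they were TIMP2 (0.102), SRGAP3 (0.129) and RTN4RL1 (0.133), beside its own 0.577, and for SEMA3B GPRIN2 (0.0872), PRR36 (0.103) and SBF2 (0.111), beside 0.438. SEMA3C had no gene as close, with SLC29A1 at 0.179 and RAB6D at 0.180, beside 0.595. For NRP2 the nearest were GDF15 (0.559), RBM24 (0.560) and ZIC2 (0.573), beside 0.866, with 0 to 15 counts per NRP2 library. Over the 8 group means in place of libraries all 3 genes were kept for NRP1, 2 for NRP2 and 1 each for SEMA3C, SEMA6A and SEMA3B.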

How the data were processed

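RNA was measured in 28 LNCaP libraries in 2 experiments. Per the labels, RNA was made into libraries with a directional NEBNext Ultra II kit. The submitters' processing notes name FastQC, cutadapt 2.8, STAR 2.7.2b and featureCounts of Subread 2.0.3, with the builds GRCh38.p13 and GRCm39 and no role for either. The annotation release and strand setting are not given in the sources used here. The authors deposited estimated counts per gene, of which 16.9% of the values above 0 were fractional, and these were rounded to whole numbers. A table of 61815 human genes was used, and 2 added entries at 0 were left out.

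Each experiment was fitted alone in edgeR 4.0.16 (R 4.3.3; TMM, filterByExpr set to counts of 10 and totals of 15, quasi-likelihood F test, Benjamini-Hochberg over 15963 genes at 24 h and 16084 at 72 h), and the difference between experiments was fitted over all 28 libraries (16685 genes). Groups were taken from the labels. All 36 replicate pairs differed beyond sampling noise. Low counts limit precision, and the floor was 3 counts. The intervals of pooled counts cover counting error only. The SE is that of the fitted coefficient. Alternatives were DESeq2 1.42.0 (size factors and Wald test), no filter, library totals alone, thinning to the smallest total, a replicate block, no fold limit, and leaving out each library. The fits were tested on simulated counts. Gene positions are from GENCODE 29 on GRCh38, matched by gene ID. Figures were drawn with matplotlib 3.10.9. The genes and lists were chosen with earlier results of these data known. Of the other pathway genes, those called for R1881 in 1 direction in both experiments, or in at least 3 of the 4 inhibitor contrasts, are named. PLXNA2, VEGFA and PCSK5 were added after their values were seen. Some items of the marker, motif and likeness searches are not reported here.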

Additional observations from a re-analysis of the deposited data

Results flagged for a closer look

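In groups of 4 libraries, 1 library stood apart from the others by a gap over Dixon's critical value for the share of the group's range in 4 of the 40 sets searched (10 genes in 4 groups), a size that chance gives in about 1 of 20 sets. For SEMA3C with SNX631 alone, replicate 4 read 101 CPM, with a gap of 0.902 of the range. For SEMA4B in the same group, replicate 3 read 43.8 CPM, with a gap of 0.865. With R1881 and SNX631 together, replicate 4 read 193 CPM for NRP1 (gap 0.872) and replicate 2 read 5.35 CPM for PLXND1 (gap 0.869).

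The effect of R1881 differed with and without inhibitor, at an edgeR FDR under 0.01 for the difference itself, for NRP1 at 24 h (0.30 on the log2 scale, edgeR FDR 0.00108) and at 72 h for NRP1 (0.47, edgeR FDR 3.52e-09), SEMA3C (0.40, edgeR FDR 5.1e-07), PLXNB1 (-0.43, edgeR FDR 9.68e-08) and SEMA3B (-0.34, edgeR FDR 0.00406). The R1881 effect differed between the experiments for SEMA3C (-1.17 at 72 h minus 24 h, edgeR FDR 8.84e-18) and NRP1 (0.37, edgeR FDR 9.21e-07).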

How the results depend on the processing

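DESeq2 size factors, the DESeq2 Wald test, library totals alone and the replicate block left all 11 counts of genes called within 1.5 times the main count. Same-numbered libraries correlated between -0.027 and 0.073 at 24 h and between -0.072 and 0.071 at 72 h, so the numbers gave no pairing, and with the replicate block the PLXND1 interaction at 24 h was 0.043 and its difference between experiments 0.012, and SEMA3B with SNX631 missed an FDR of 0.01 (edgeR FDR 0.0114).

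With no fold limit, at an FDR under 0.05 and under 0.01, the counts were 8 and 8 for R1881 at 24 h, 9 and 8 with Senexin B present, 4 and 4 for Senexin B, 3 and 3 with R1881, 2 and 1 for the interaction, 8 and 8 for R1881 at 72 h, 5 and 5 for SNX631, 4 and 3 with R1881, 5 and 4 for the interaction, and 2 and 2 for the difference between experiments. Senexin B alone called 1 gene without the filter (NRP2) and 1 after thinning (SEMA3C, 0.59), and leaving out 1 library gave 0 to 2. NRP2 entered the test in 10 of these fits and was called in all 10 (1.88 to 3.33, edgeR FDR 0.000297 to 0.00268). It passed the filter only through the Senexin B libraries, where it was highest, and not in the fits without Senexin B replicate 1 or 3. These calls therefore do not show how firm its rise is. With 1 library left out, R1881 at 24 h called 4 to 5 without and with Senexin B.

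Values near 0 reversed in sign. By DESeq2 size factors these were SEMA3F with Senexin B (0.0035), SEMA4B with Senexin B (0.00016) and SEMA3B between experiments (0.0040). By the DESeq2 Wald test they were PLXNA1 with R1881 at 24 h (0.0015), SEMA3F with Senexin B (0.010) and the PLXND1 interaction at 24 h (0.0015). Without the filter they were that interaction (0.0064) and SEMA3B between experiments (0.023). By library totals they were SEMA6A under Senexin B with R1881 (-0.026), PLXNA1 with R1881 at 72 h (-0.059), and SEMA6A (-0.0087) and NRP1 (-0.0034) under SNX631 with R1881. After thinning they were PLXNA1 with R1881 at 24 h (0.045), SEMA3F with Senexin B (0.041), PLXND1 with SNX631 (0.0013) and PLXNA1 between experiments (-0.013). The cause was not tested.

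Leaving out 1 library gave ranges across 0 for PLXNA1 with R1881 at 24 h (-0.032 to 0.037), for SEMA3F (-0.031 to 0.062), SEMA4B (-0.014 to 0.016) and PLXND1 (-0.037 to 0.20) with Senexin B, for SEMA6A (-0.048 to 0.034), NRP1 (-0.058 to 0.013) and PLXND1 (-0.040 to 0.23) under Senexin B with R1881, and for the 24 h interaction of SEMA3C (-0.018 to 0.094) and PLXND1 (-0.14 to 0.15). At 72 h it did so for PLXND1 with SNX631 (-0.091 to 0.092), for SEMA6A (-0.0029 to 0.054) and PLXND1 (-0.14 to 0.012) under SNX631 with R1881, and for the interaction of SEMA4B (-0.011 to 0.062) and PLXND1 (-0.16 to 0.038). Between experiments it did so for SEMA3B (-0.11 to 0.069) and PLXND1 (-0.11 to 0.088). PLXND1, at 33 to 151 counts per library, and NRP2, at 0 to 15, are limited by depth.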
